A study of Mus musculus with 16 samples.

Results

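The striated muscle microRNAs (miRNAs) mmu-miR-1, mmu-miR-133a, mmu-miR-133b and mmu-miR-206 were followed in carotid arteries after wire injury. They were taken by name from the deposited arrays, and all 4 were found among 611 mouse miRNAs with a probe and among the 321 that were tested. The 16 arteries came from female ApoE-/- mice of C57BL/6 background, which lack apolipoprotein E, and a western-type diet was given. Arteries were taken 1 day (n = 3), 7 days (n = 3), 14 days (n = 3) and 28 days (n = 4) after a wire had been passed through the vessel, and 3 uninjured arteries served as the control. The day 1 animals were 8 weeks old and the others 6 to 8 weeks. All groups share the ApoE deletion and the diet, so no artery of a mouse with ApoE was compared. The series concerns neointima formation, in which the inner wall of an artery thickens once it has been damaged. Total RNA of each artery was put on 1 Agilent 1-colour array.

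Members of the miR-1 and miR-133 families are made together from paired genes in heart and skeletal muscle, where muscle transcription factors switch them on and where they act on the growth and differentiation of muscle cells. miR-206 belongs to the miR-1 family by its seed, the stretch near the 5′ end that pairs with target messages, and is made mainly in skeletal muscle, where work in mice links it to regenerating fibres. Smooth muscle of arteries is known above all for miR-143 and miR-145, and lower amounts of miR-1 and miR-133 have been described there too. miR-133a and miR-133b share their seed and differ only at the 3′ end, so that an array probe for one may also take up some of the other.

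The mature sequences of miR-206 and miR-133b, 2 members whose genes are neighbours, are shown. They are from RefSeq (GRCm38.p6), 5′ to 3′, with the seed (bases 2 to 8) in capitals.
mmu-miR-206-3p: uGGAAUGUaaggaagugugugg
mmu-miR-133b-3p: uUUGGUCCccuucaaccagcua
Each is 22 bases long. The first lies at chr1:20679055-20679076 and the second at chr1:20682834-20682855, both on the plus strand of GRCm38.p6. Their genes, Mir206 and Mir133b, are neighbours, with 0 annotated genes between them and 3686 bases from one hairpin to the next, and the noncoding gene Lincmd1 spans both. Mir1a-1 and Mir133a-2, a gene of miR-1 and a gene of miR-133a, are neighbours in the same way inside Mir1a-1hg. The hairpins of the first pair show the mature stretch printed above in capitals, on the 3′ side of each. The array names carry no arm and were taken for the 3′ arm, since no probe sequence was used here.
Mir206: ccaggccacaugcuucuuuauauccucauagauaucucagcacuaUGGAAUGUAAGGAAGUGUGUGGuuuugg
Mir133b: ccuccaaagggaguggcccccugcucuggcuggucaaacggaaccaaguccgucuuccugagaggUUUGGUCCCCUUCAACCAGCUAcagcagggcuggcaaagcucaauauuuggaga
The seed is GGAAUGU in miR-206 and UUGGUCC in miR-133b. Mature sequences of miR-1 and miR-133a are not printed here, so the likeness within each family cannot be read from those shown.

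Levels are given as log2 of the signal divided by the array's 75th percentile over 395 probes detected above background throughout, so that 0 is that percentile. The 75th percentile lay between 483.8 and 1432 intensity units on the 13 arrays of injured arteries and between 401 and 624.1 on the 3 of uninjured arteries. The number of miRNAs well above background was 285 to 335 on the arrays of injured arteries and 251 to 292 on those of uninjured arteries. Day 1, day 7 and 2 of the day 28 arteries were on slide 1, and day 14, the other 2 day 28 arteries and the uninjured arteries were on slide 2. Day 1 and day 7 are therefore set against uninjured arteries across slides, and values with slide as a block are given where they change a call. Among all tested miRNAs the arrays of day 14 replicate 1 and day 28 replicate 2 stood apart, and results without them are given where they differ.

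miR-1, miR-133a and miR-133b were well above background on 16 of 16 arrays, and miR-206 on 15, the exception being day 1 replicate 1. No spot of a member was saturated. The processed signal ran from 353.3 to 2619 intensity units for miR-1, from 741.5 to 2785 for miR-133a, from 1043 to 4059 for miR-133b and from 16.45 to 1763 for miR-206. The span over the 16 arrays after scaling was 8.72-fold for miR-1, 8.20-fold for miR-133a, 8.21-fold for miR-133b and 45.4-fold for miR-206. Each member had 2 probes, and the brighter was used. The 2 probes of a member correlated across the 16 arrays at r = 0.994 (miR-1), 0.995 (miR-133a), 0.981 (miR-133b) and 0.834 (miR-206), the dimmer miR-206 probe being well above background on 9 arrays. The coefficient of variation between spots of the probe on an array had a median of 5.05% for miR-1, 4.11% for miR-133a, 9.09% for miR-133b and 6.53% for miR-206, and reached 40.5% for miR-206 on day 1 replicate 1.

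In the fit with no slide term, miR-133a was called lower than in uninjured arteries at day 7, day 14 and day 28. So were miR-1 at day 14 and day 28 and miR-133b at day 28, all by 2.33-fold to 3.28-fold. miR-206 followed another course, with its highest levels at day 14. No member passed the test at day 1. In limma's test over the 321 miRNAs, at an adjusted p under 0.05, 0 of the 4 members were lower at day 1 (12.8% of all tested miRNAs were), 1 at day 7 (22.4%), 2 at day 14 (19.0%) and 3 at day 28 (9.35%), and none was higher on any day (19.6%, 27.4%, 20.2% and 16.8% of all tested miRNAs were higher on days 1, 7, 14 and 28). At day 1 no member reached an unadjusted p of 0.05 either. With slide as a block, 0 of the 4 were called at day 7, 2 at day 14 and 0 at day 28. Of all tested miRNAs 28.7%, 40.2% and 17.1% were then called, in either direction. Without the block, the median difference of the 4 members was log2 -0.45, -0.79, -1.18 and -1.28 on the 4 days, beside 0.24, 0.0027, 0 and 0.035 for all tested miRNAs. In this tissue RNA, fewer cells of a type and less RNA per cell cannot be told apart.

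**Figure D1:**
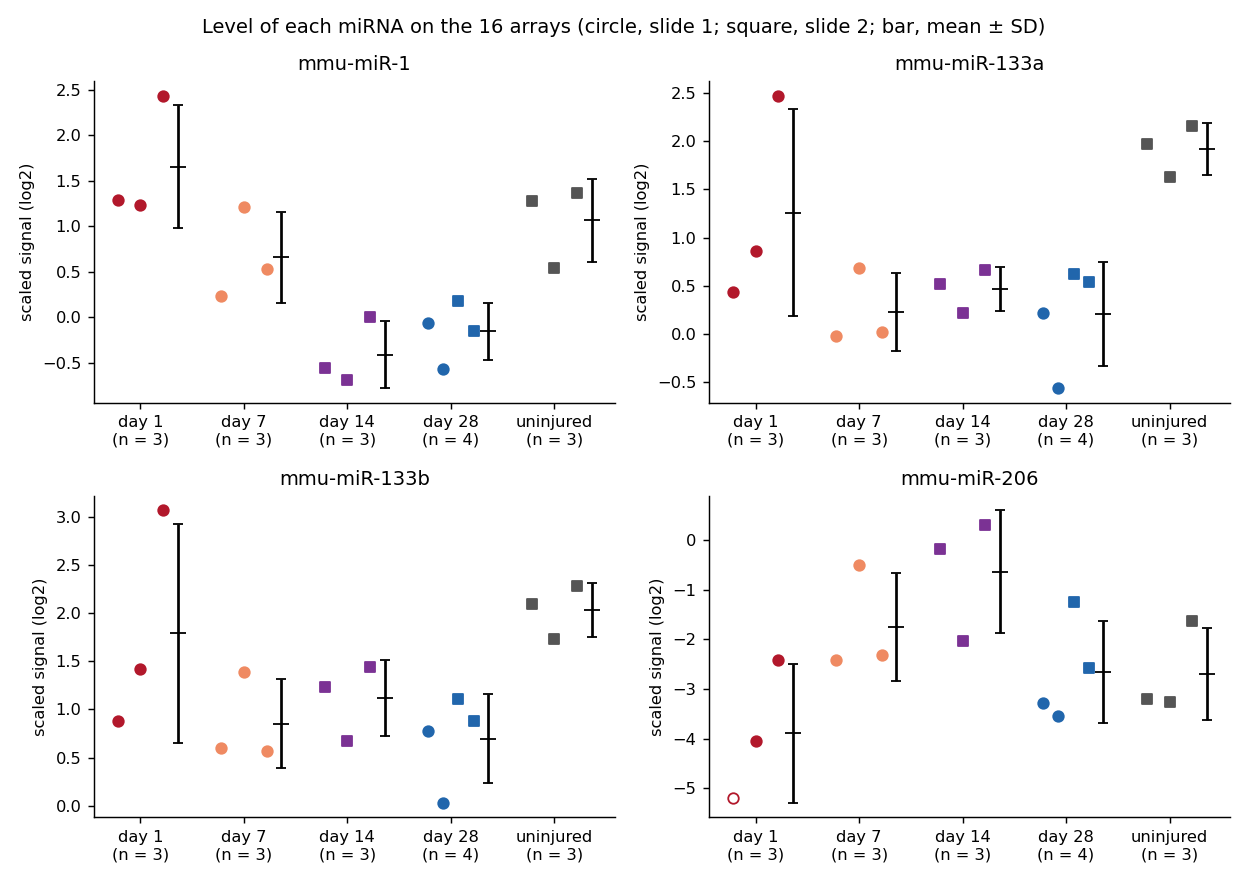
Scaled log2 signal of the 4 miRNAs on each of the 16 arrays, by day after injury and for uninjured arteries; circles are arrays of slide 1, squares arrays of slide 2, the open circle is the array on which miR-206 was not well above background, and bars are the mean ± SD. miR-133a of days 7, 14 and 28 lies wholly below the uninjured arrays, while miR-206 has its highest mean, -0.64, at day 14.

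miR-133a was measured at log2 0.44, 0.86 and 2.47 in the day 1 arteries and at -0.027, 0.69 and 0.016 in the day 7 arteries. It stood at 0.52, 0.22 and 0.67 at day 14 and at 0.22, -0.56, 0.63 and 0.54 at day 28, against 1.97, 1.63 and 2.16 in uninjured arteries. Every artery of days 7, 14 and 28 lay below every uninjured one, and day 1 replicate 3 lay above all 3 of them. How many of all tested miRNAs separate from uninjured arteries, or between days, in this way is not given, here or for the miRNAs below. The difference from uninjured arteries was log2 -1.69 ± 0.45 (SE) at day 7 (3.23-fold lower, adjusted p = 0.00613), -1.45 ± 0.45 at day 14 (2.73-fold lower, adjusted p = 0.0209) and -1.72 ± 0.42 at day 28 (3.28-fold lower, adjusted p = 0.00862). At day 1 it was -0.66 (95% interval -1.63 to 0.30, adjusted p = 0.267). Over the mean of the 4 days miR-133a was 2.60-fold lower (log2 -1.38 ± 0.35, adjusted p = 0.00739), the only member called in that comparison, in which 16.5% of all tested miRNAs were called lower.

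The day 7 and day 28 calls of miR-133a did not hold with slide as a block. The difference was then log2 -0.94 ± 0.68 at day 7 (adjusted p = 0.353) and -1.34 ± 0.48 at day 28 (adjusted p = 0.0752), with 0 of 4 members called on either day, beside 28.7% and 17.1% of all tested miRNAs. At an unadjusted p under 0.05 the blocked fit had 0 members at day 7 and 2 at day 28. For the mean of the 4 days it gave -0.91 ± 0.47 (adjusted p = 0.198), again with 0 of 4 members called (23.7% of all tested miRNAs) and 0 at an unadjusted p under 0.05. Day 14 and the uninjured arteries shared slide 2, and the block left that call in place (adjusted p = 0.0187). The day 14 call was lost without day 14 replicate 1 or 2 or uninjured replicate 1 or 3, with adjusted p up to 0.0654, and with no scaling of the arrays (-0.79, adjusted p = 0.282). Among slide 2 arrays alone, day 28 differed from uninjured by -1.34 (adjusted p = 0.00603, 2 arrays against 3). Slide and group cannot be fully told apart at day 1 and day 7, since only the day 28 arteries link the slides.

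miR-133b gave log2 0.88, 1.42 and 3.07 at day 1 and 0.60, 1.39 and 0.57 at day 7. The day 14 arteries held 1.23, 0.67 and 1.45 and the day 28 arteries 0.78, 0.031, 1.105 and 0.88, against 2.10, 1.73 and 2.28 in uninjured arteries. As with miR-133a, days 7, 14 and 28 lay wholly below uninjured arteries. Only day 28 was called, at log2 -1.34 ± 0.44 (2.53-fold lower, adjusted p = 0.0396). Day 7 stood at -1.18 ± 0.47 (adjusted p = 0.0507) and day 14 at -0.92 ± 0.47 (adjusted p = 0.145). The day 28 call was lost with slide as a block (-1.04 ± 0.52, adjusted p = 0.201), without day 28 replicate 1, 2 or 4, and without any 1 of the uninjured arrays, with adjusted p up to 0.125. Without both arrays that stood apart it was lost too (-1.11, adjusted p = 0.107).

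miR-1, which shares its seed with miR-206, had log2 1.29, 1.24 and 2.44 at day 1 and 0.23, 1.21 and 0.53 at day 7. Its values were -0.55, -0.69 and 0.0040 at day 14 and -0.062, -0.57, 0.17 and -0.16 at day 28, against 1.28, 0.54 and 1.37 in uninjured arteries. The arteries of days 14 and 28 lay below every uninjured artery and below every artery of days 1 and 7. The difference from uninjured arteries was log2 -1.48 ± 0.36 at day 14 (2.78-fold lower, adjusted p = 0.00580) and -1.22 ± 0.34 at day 28 (2.33-fold lower, adjusted p = 0.0169). At day 1 the mean was above that of uninjured arteries (0.59 ± 0.36, adjusted p = 0.226) and at day 7 it was below (-0.41 ± 0.36, adjusted p = 0.392). Neither difference passed the test. With slide as a block the day 14 call stayed (adjusted p = 0.00730), with no scaling it was lost (-0.82, adjusted p = 0.252), and the day 28 call did not hold with the block (-1.06 ± 0.41, adjusted p = 0.0946). The day 28 call was also lost without uninjured replicate 1 or replicate 3, and without both arrays that stood apart (-1.08, adjusted p = 0.0574).

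miR-206 measured log2 -5.20, -4.05 and -2.42 at day 1 and -2.42, -0.49 and -2.32 at day 7. It reached -0.17, -2.04 and 0.30 at day 14 and stood at -3.27, -3.55, -1.25 and -2.58 at day 28, against -3.20, -3.26 and -1.64 in uninjured arteries. All 3 day 14 arteries lay above all 3 of day 1, and 2 of them above every uninjured artery. The spread within a group was the widest among the members, with an SD of 1.40, 1.09, 1.24 and 1.02 (log2) on the 4 days and 0.92 in uninjured arteries. At day 14 the difference from uninjured arteries was log2 2.06 ± 0.86 (95% interval 0.21 to 3.92, adjusted p = 0.0731), which did not pass. Leaving out 1 array at a time gave 1.59 to 2.76, with adjusted p up to 0.21 and 1 call, without day 14 replicate 2 (adjusted p = 0.0297). Without both arrays that stood apart it was 1.83 (adjusted p = 0.184). The other days gave -1.19 ± 0.86 at day 1, 0.96 ± 0.86 at day 7 and 0.037 ± 0.80 at day 28, with adjusted p of 0.299, 0.394 and 0.999.

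In the order of their group means, miR-133a and miR-133b both ran day 28, day 7, day 14, day 1 and uninjured from low to high, miR-1 ran day 14, day 28, day 7, uninjured and day 1, and miR-206 ran day 1, uninjured, day 28, day 7 and day 14. No pair of neighbours in any of these orders passed limma's test. The smallest adjusted p among them was 0.0834, for day 28 against day 7 in miR-1.

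Against day 1, the mean of miR-1 was lower and that of miR-206 higher on each later day. From day 7 to day 28 both means went down (log2 -0.81 for miR-1 and -0.92 for miR-206, neither called). miR-1 was lower at day 7 than at day 1 (log2 -0.998 ± 0.36, adjusted p = 0.0398), lower at day 14 than at day 1 (-2.07 ± 0.36, 4.19-fold, adjusted p = 0.000585) and lower at day 28 than at day 1 (-1.81 ± 0.34, 3.51-fold, adjusted p = 0.00154). miR-206 was 9.54-fold higher at day 14 than at day 1 (log2 3.25 ± 0.86, adjusted p = 0.00818), with 1 of the 3 day 1 arrays not well above background. These comparisons share the day 1 arrays, so they are not independent of each other. The members called were 1 of 4 at day 7 against day 1 (43.3% of all tested miRNAs were called), 2 at day 14 against day 1 (39.9%) and 1 at day 28 against day 1 (34.3%). None was called at day 14 against day 7 (10.3%), day 28 against day 14 (15.3%) or day 28 against day 7 (33.6%), where limma gave 1 member each at an unadjusted p under 0.05.

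With slide as a block, miR-1 kept its calls. It gave adjusted p = 0.0446 at day 7 against day 1 (1 of 4 members, 43.9% of all tested miRNAs), log2 -2.40 with adjusted p = 0.0201 at day 14 against day 1 (1 of 4, 13.4%) and -1.97 with adjusted p = 0.00583 at day 28 against day 1 (1 of 4, 20.2%). The day 7 call was lost in 9 of 23 other settings, among them slide 1 fitted alone (adjusted p = 0.0749), median scaling (-0.51, adjusted p = 0.299) and no scaling (-0.28, adjusted p = 0.690). It was also lost without day 1 replicate 3, day 7 replicate 1 or day 7 replicate 3. The miR-206 difference at day 14 against day 1 became 1.76 ± 1.30 (adjusted p = 0.372). Day 7 and day 1 lie on the same slide, and there miR-206 was higher at day 7 by 2.15 ± 0.86 (4.43-fold, adjusted p = 0.0566), which did not pass. It passed in 7 of 22 other settings, with the percentile over all probes, median scaling, quantile normalization and no scaling among them (adjusted p = 0.0300, 0.0211, 0.0135 and 0.0189).

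**Figure D2:**
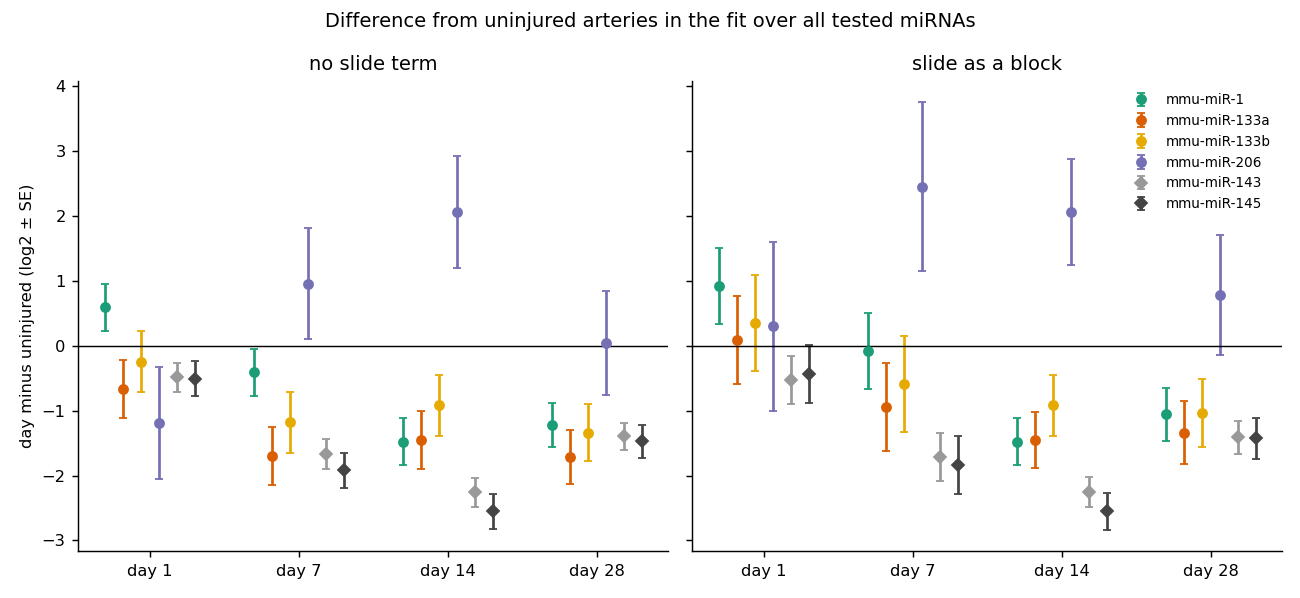
Difference of each day from uninjured arteries (log2 ± SE) for the 4 miRNAs and for miR-143 and miR-145, in the fit with no slide term (left) and with slide as a block (right). The miR-133a difference at day 7 is -1.69 without the block and -0.94 with it, while that of miR-143 is -1.67 and -1.71.

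Ratios of members on the same array do not depend on the scaling. An exact two-sided permutation test of the 13 injured against the 3 uninjured arrays was run on the 6 pairs, with 560 splits and a smallest p of 0.00179. One pair passed. miR-133a minus miR-133b was log2 -0.57 ± 0.12 (SD, n = 13) in injured arteries and -0.12 ± 0.017 (SD, n = 3) in uninjured arteries. The difference was -0.45 (exact p = 0.00179, adjusted p = 0.0107 over the 6 pairs).

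Within the array, miR-133a minus miR-133b was -0.45, -0.56 and -0.60 at day 1 and -0.63, -0.70 and -0.55 at day 7. It was -0.71, -0.45 and -0.78 at day 14 and -0.56, -0.59, -0.48 and -0.34 at day 28, against -0.13, -0.097 and -0.13 in uninjured arteries. All 13 injured arteries lay below all 3 uninjured ones, already at day 1. How many pairs of other miRNAs separate in this way is not given. Among slide 2 arrays alone, 5 injured against 3 uninjured, the difference was -0.44 (exact p = 0.0179, the smallest that design allows). With the mean over both probes of each miRNA it was -0.48, and in the value table -0.46, at the same p of 0.00179. Without any 1 of the uninjured arrays it was -0.44 to -0.46, with an adjusted p of 0.0571, since the test then cannot go lower. The ratio shows that the readings of the 2 probes changed unequally, and how far the 2 probes share signal was not tested.

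miR-133b minus miR-206 was 6.09, 5.48 and 5.49 at day 1, 3.03, 1.88 and 2.89 at day 7, 1.40, 2.72 and 1.15 at day 14 and 4.05, 3.58, 2.36 and 3.46 at day 28, against 5.30, 4.99 and 3.92 in uninjured arteries. On day 1 replicate 1 miR-206 was not well above background, so that its 6.09 is no exact gap. The gap was wider on the other 2 day 1 arrays than on any uninjured array, and it was narrower than on any of them in all arteries of days 7 and 14 and in 3 of the 4 of day 28. Pooled over days the pair did not pass (-1.39, exact p = 0.177, adjusted p = 0.265). Among the slide 2 arrays, which hold no day 1 artery, all 3 pairs with miR-206 had the smallest p that design allows (0.0179, adjusted p = 0.0268). The difference to miR-206 changed there by log2 -2.86 for miR-1, -2.96 for miR-133a and -2.52 for miR-133b (injured minus uninjured).

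**Figure D3:**
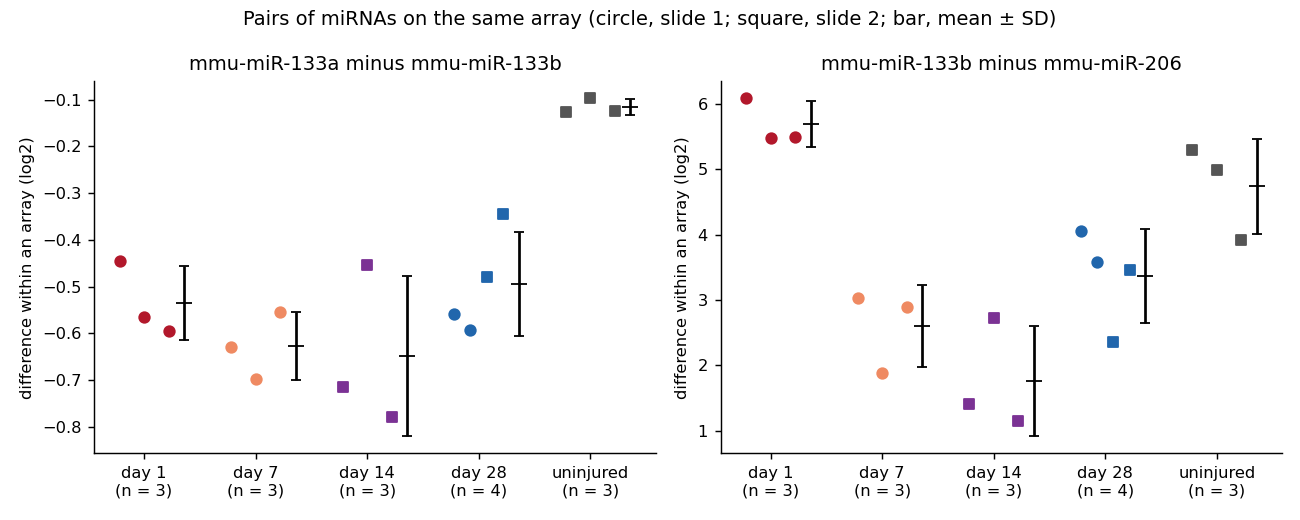
Difference between 2 miRNAs on the same array (log2) by group, miR-133a minus miR-133b on the left and miR-133b minus miR-206 on the right; circles are slide 1, squares slide 2, and bars the mean ± SD. On the left all 13 injured arrays lie below the 3 uninjured ones; on the right days 7 and 14 lie below them and day 1 above, where miR-206 was not well above background on replicate 1.

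Within a group, arteries high in one member were high in the others. Deviations from the group means, over the 16 arrays, correlated at r = 0.986 for miR-133a with miR-133b, 0.898 for miR-1 with miR-133b, 0.881 for miR-1 with miR-133a, and 0.814, 0.828 and 0.868 for miR-206 with miR-1, miR-133a and miR-133b. These are descriptions over arrays that share their scaling, with no test. Without removing the group means, miR-133a and miR-133b correlated at 0.972 and each with miR-1 at 0.741 and 0.765, while miR-206 stood at -0.25, 0.040 and 0.16 with miR-1, miR-133a and miR-133b.

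Day 1 replicate 3 carried the largest deviations of miR-1, miR-133a and miR-133b, at 0.78, 1.22 and 1.28 above the day 1 mean, with miR-206 at 1.47. In uninjured replicate 3 the 4 members were 0.31, 0.24, 0.25 and 1.06 above their mean, and in day 28 replicate 3 they were 0.33, 0.42, 0.41 and 1.41 above it. On day 28 replicate 2, one of the arrays that stood apart, they were -0.42, -0.77, -0.67 and -0.89 from it. With day 1 replicate 3 left out, miR-133a was called lower at day 1 as well (log2 -1.27, adjusted p = 0.0162), and over the mean of the 4 days 3 members were called in place of 1. The share of all tested miRNAs called without that array is not given.

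**Figure D4:**
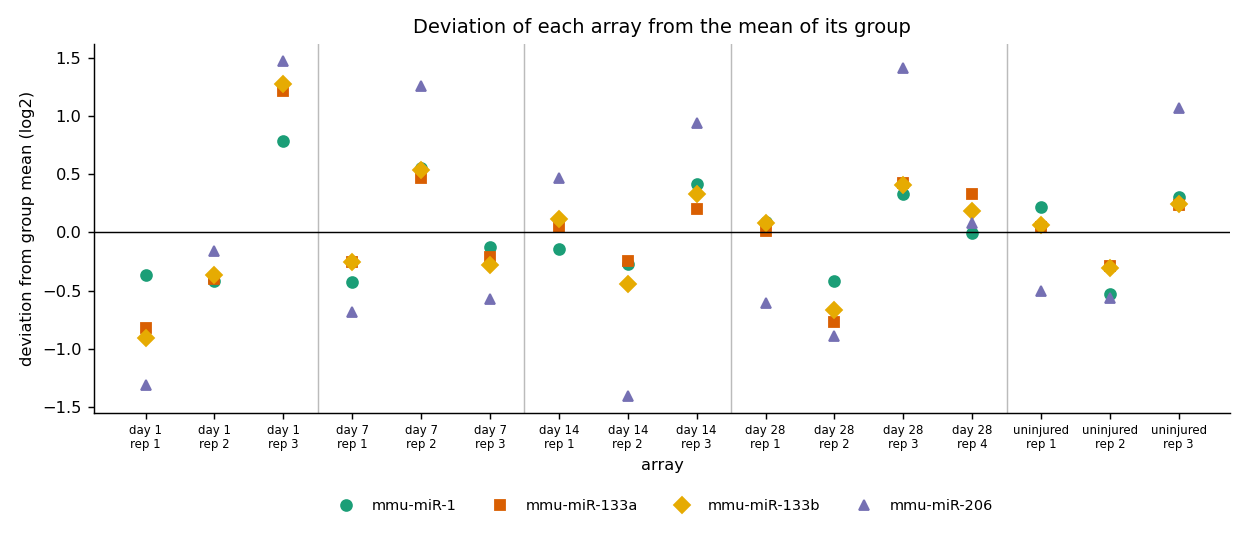
Deviation of each array from the mean of its group (log2) for the 4 miRNAs on the 16 arrays, with grey lines between groups. The 4 symbols of an array lie on the same side of 0 on most arrays, and miR-206 spans the widest range, -1.40 to 1.47.

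Of the other miRNAs of striated muscle with a probe, miR-133a*, the opposite arm of the miR-133a hairpin, was well above background on 16 arrays. miR-208a, miR-208b and miR-499, which lie within myosin genes of heart and slow muscle, and miR-1-2-as were well above background on 0 of 16 arrays. miR-133a* differed from uninjured arteries by log2 -0.11 ± 0.54, -0.90 ± 0.54, -1.33 ± 0.54 and -1.40 ± 0.51 on days 1, 7, 14 and 28 (adjusted p = 0.911, 0.202, 0.0689 and 0.0602), so none of these passed. Every artery of days 14 and 28 lay below the uninjured ones. The summed scaled signal of the list, with a miRNA not well above background on an array counted as 0, was that of miR-133a* alone and ranged over the days in order from 0.0469 to 0.228, 0.0376 to 0.0780, 0.0253 to 0.0580 and 0.0213 to 0.0568, against 0.0678 to 0.133 in uninjured arteries.

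Among all tested miRNAs outside the 4, miR-133a* was the one most like miR-1 (r = 0.889), miR-133a (0.915) and miR-133b (0.949) over the 16 arrays, followed by miR-365 (0.788) and miR-193 (0.752) for miR-1, miR-193b (0.736) and miR-378 (0.694) for miR-133a, and miR-378 (0.598) and miR-378* (0.596) for miR-133b. Most like miR-206 were miR-542-5p (0.819), miR-322 (0.752) and miR-34b-5p (0.731). In deviations from the group means miR-133a* came first for all 4, at 0.942 for miR-1, 0.953 for miR-133a, 0.974 for miR-133b and 0.896 for miR-206. The next highest there was miR-494 for miR-1 (0.610), miR-199b* for miR-133a (0.652), miR-125a-3p for miR-133b (0.599) and miR-503 for miR-206 (0.785). The third places were held by miR-671-5p (0.546), miR-125a-3p (0.640), miR-199b* (0.573) and miR-126-3p (0.618).

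miR-143 and miR-145, the 2 smooth muscle miRNAs detected out of 3 with a probe, fell at day 7, day 14 and day 28 and not at day 1. In limma's test 0, 2, 2 and 2 of the 2 were lower on the 4 days, with 0 at an unadjusted p under 0.05 on day 1, and their median difference was log2 -0.50, -1.79, -2.40 and -1.43. miR-143 differed from uninjured arteries by -1.67 ± 0.23 at day 7, -2.26 ± 0.23 at day 14 and -1.39 ± 0.21 at day 28 (adjusted p = 4.66e-05, 5.84e-06 and 0.000317), and miR-145 by -1.92 ± 0.27, -2.55 ± 0.27 and -1.47 ± 0.26 (adjusted p = 7.18e-05, 1.05e-05 and 0.00102). These calls against uninjured arteries stayed with slide as a block (largest adjusted p 0.00842). Both were higher at day 28 than at day 14, by 0.86 ± 0.21 for miR-143 and 1.08 ± 0.26 for miR-145 (adjusted p = 0.0159 and 0.0130, and 0.0700 and 0.0466 with the block, where the miR-143 call was lost), where miR-133a and miR-133b gave -0.26 ± 0.42 and -0.42 ± 0.44 (adjusted p = 0.744 and 0.600).

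Whether a member changed by another amount than the smooth muscle pair was tested on the member minus the mean of miR-143 and miR-145 within each array. By the exact two-sided permutation test of 13 injured against 3 uninjured arrays, 0 of 4 members passed, and 0 at an unadjusted p under 0.05. The values were 0.85 for miR-1 (1.62 ± 0.64 in injured and 0.77 ± 0.92 in uninjured arteries, SD, exact p = 0.0821), 0.12 for miR-133a (exact p = 0.836), 0.57 for miR-133b (exact p = 0.302) and 1.96 for miR-206 (exact p = 0.166). At day 14 alone, member minus smooth muscle pair was higher than in uninjured arteries for each member, given here without a test. The rise was 0.93 for miR-1, 0.95 for miR-133a, 1.48 for miR-133b and 4.46 for miR-206. For miR-206 the mean went from -3.00 in uninjured arteries, below the pair, to 1.47 at day 14, above it. At days 1, 7 and 28 the miR-206 mean differed from that of uninjured arteries by -0.70, 2.75 and 1.47. The test pools the days, and the SD in uninjured arteries was 0.81 to 1.52 over the members, so it could miss a change. Among slide 2 arrays alone 0 of 4 passed (miR-206 3.56, exact p = 0.0714).

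From artery to artery within a group, the members were not high where the smooth muscle pair was high. Deviations from the group means correlated with those of miR-143 at r = -0.22 for miR-1, -0.32 for miR-133a, -0.34 for miR-133b and -0.44 for miR-206, and with those of miR-145 at -0.11, -0.079, -0.11 and -0.34. The SD of miR-143 within a group was 0.13, 0.032 and 0.062 at days 7, 14 and 28, beside 0.42 at day 1 and 0.48 in uninjured arteries. Its coefficients therefore rest mainly on the day 1 and uninjured arrays. Over the 16 arrays with group means kept, miR-1, miR-133a and miR-133b stood at 0.655, 0.622 and 0.492 with miR-143, and miR-206 at -0.65. The largest deviations of the members, on day 1 replicate 3, came with miR-143 at 1.69 and miR-145 at -2.14, inside the range of the other day 1 arteries (1.47 to 2.29 and -2.52 to -1.98). Markers of other cells, 1 for each cell type, gave coefficients of both signs in deviations from the group means. Coefficients of the other markers of these cell types are not given, so the 1 shown need not stand for the rest. The red cell miR-451 stood at 0.28, 0.47, 0.51 and 0.27 with miR-1, miR-133a, miR-133b and miR-206, and the endothelial miR-126-3p at 0.32, 0.53, 0.50 and 0.62. The fat-associated miR-193b ran from 0.053 to 0.28, the nerve miR-137 from -0.23 to 0.016 and the leukocyte miR-223 from -0.46 to -0.18. Day 1 replicate 3 had the highest summed red cell signal of the 16 arrays, 63.0, beside 27.7 and 35.9 on the other day 1 arrays, whereas uninjured replicate 3, also high in the members, had 16.3, beside 40.4 and 42.9.

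Lists for other tissues around the artery moved with the days as well. Of 5 fat-associated miRNAs 1, 4, 5 and 3 were lower on the 4 days (0, 1, 5 and 1 with slide as a block), and their summed scaled signal was 4.40 to 8.14, 2.52 to 3.41, 2.89 to 3.10 and 3.40 to 5.83 on days 1, 7, 14 and 28, against 9.22 to 12.5 in uninjured arteries. Of 6 nerve miRNAs 0, 5, 5 and 1 were lower (0, 5, 4 and 0 with the block), with sums of 2.04 to 3.97, 0.366 to 0.491, 0.255 to 1.06 and 0.794 to 2.16, against 1.66 to 3.26. Of 4 leukocyte miRNAs 3 were higher on each day (2, 2, 3 and 3 with the block), with sums of 25.4 to 28.1, 12.6 to 16.9, 9.74 to 15.5 and 8.07 to 11.1, against 1.51 to 1.89. The 3 red cell miRNAs gave no call against uninjured arteries by limma (1 at an unadjusted p under 0.05, at day 7), with sums of 27.7 to 63.0, 15.1 to 27.7, 15.2 to 25.0 and 25.0 to 41.6, against 16.3 to 42.9. The endothelial miR-126-3p was higher at day 7 (log2 0.45 ± 0.16, adjusted p = 0.0305), and with the block at day 7 and day 28 (adjusted p = 0.0149 and 0.0189), with sums over its list of 7.03 to 9.80, 12.3 to 15.4, 12.2 to 13.8 and 11.2 to 15.7, against 9.68 to 10.3.

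The 4 members themselves had sums, on the same scale and in the same order of days, of 5.65 to 19.5, 3.86 to 7.25, 3.63 to 6.55 and 2.46 to 5.24, against 7.97 to 12.2 in uninjured arteries, and the smooth muscle list had 2.94 to 5.13, 1.54 to 1.80, 1.055 to 1.1 and 1.89 to 2.08, against 3.53 to 6.37. The part that skeletal muscle attached to the arteries, smooth muscle, fat, nerve, endothelium, red cells or inflammatory cells have in the levels of the 4 members was not tested.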

How the data were processed

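The deposited scanner files hold the processed intensity of every spot on 16 arrays, made by the authors with Agilent Feature Extraction 9.5.1.1, per the file headers; 700 ng of total RNA was labelled per array, per the labels. The authors' deposited value table, on a linear intensity scale, served as an alternative. Intensities were averaged over unmarked spots, scaled to the 75th percentile over 395 probes detected on all arrays, floored at 0.0181 (log2 -5.79) and put on a log2 scale (the deposited values are linear). Well above background meant that at least 50% of a probe's unmarked spots were so marked. Tested were 321 miRNAs so detected on all arrays of a group, 1 probe each, the brightest. limma 3.58.1 in R 4.3.3 (input through data.table, version 1.17.8) fitted 1 model over 5 groups (prior degrees of freedom 1.98), with Benjamini-Hochberg adjustment within each comparison and calls at 0.05. Single ratios were tested by exact two-sided permutation over arrays. The pipeline was tested on simulated data. Named were the 4 members, the listed marker miRNAs and, per member, the 3 most like by correlation over 16 arrays and the 3 by deviations from group means. Alternatives concerned scaling, background, filter, floor, outlier spots, probes, signal column, slide, replicate number, moderation, weights and arrays left out. The labels describe separate animals, and the number of arrays limits the precision. Members and lists were chosen with earlier results of these data known. Replicate numbers did not pair the arrays: same-numbered arrays correlated at a median r of -0.062 in deviations from group means.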

Additional observations from a re-analysis of the deposited data

Results flagged for a closer look

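The effect of injury differed between days for 2 of the members, by limma's test of the difference itself. miR-1 differed by log2 -0.998 at day 7 against day 1 (adjusted p = 0.0398), -2.07 at day 14 against day 1 (adjusted p = 0.000585) and -1.81 at day 28 against day 1 (adjusted p = 0.00154). miR-206 differed by 3.25 at day 14 against day 1 (adjusted p = 0.00818). Days 7, 14 and 28 against day 1 thus had 1, 2 and 1 of the 4 members called, beside 43.3%, 39.9% and 34.3% of all tested miRNAs. With slide as a block the miR-1 differences kept an adjusted p of at most 0.0446 and that of miR-206 had 0.372. Of all tested miRNAs 43.9%, 13.4% and 20.2% were then called. The day 7 call of miR-1 was lost in 9 of 23 other settings, where it came down to log2 -0.28 (no scaling, adjusted p = 0.690). In the only group of 4 arrays, day 28, no array of a member lay apart from the other 3 by Dixon's test.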

How the results depend on the processing

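Of the calls against uninjured arteries, miR-133a at day 7, day 14 and day 28 kept its direction in all alternatives, at log2 -1.94 to -0.73, -1.70 to -0.79 and -2.01 to -1.08, and so did miR-1 at day 14 (-1.72 to -0.82). Numbers of members called are out of 4, and the cause of their changes was not tested. For most of these settings, and with 1 array left out, the share of all tested miRNAs called is not given. A change in calls common to all miRNAs is therefore not separated from one of the members. At day 7 against uninjured (1 called) the number was 2 with median scaling, normexp background, a floor 0.5 times as high, a filter for detection on all arrays, outlier spots kept, total gene signal, the value table, the replicate block, only the 2 groups, trend and robust moderation and with both arrays high in the members (day 1 replicate 3 and uninjured replicate 3) left out, 3 with array weights (miR-206 higher among them), and 0 with no scaling, slide as a block or the replicate block with slide. At day 14 against uninjured (2) it was 1 with quantile normalization or no filter (miR-1), 1 with no scaling, where miR-1 and miR-133a were lost and miR-206 was called higher (2.72, adjusted p = 0.0252), and 4 with array weights, miR-206 higher among them. Within 1 slide and with only the 2 groups, miR-133b was called lower in addition. With the mean over probes and with both high arrays left out, miR-206 was called higher in addition. At day 28 against uninjured (3) it was 0 with no scaling, slide as a block or the replicate block with slide, and 1 with both arrays that stood apart left out. There miR-133b alone was lost with the percentile over all probes, no filter or a floor 2 times as high, and miR-1 alone within 1 slide. Over the mean of the 4 days (1) it was 2 with the percentile over all probes, array weights or both high arrays left out, 3 with median scaling, total gene signal or the value table, and 0 with no scaling, slide as a block or the replicate block with slide. At day 1 against uninjured (0) it was 1 with median scaling and with both high arrays left out. At day 7 against day 1 (1, miR-1) the 1 called was miR-206, higher, in place of miR-1 with the percentile over all probes, median scaling, quantile normalization, no scaling, array weights or both high arrays left out. It was 2 with total gene signal, the value table or the replicate block, and 0 with no filter, within 1 slide or only the 2 groups. At day 14 against day 1 (2) it was 1 with only miRNAs detected on all arrays, slide as a block or only the 2 groups, and 0 with the replicate block and slide. At day 28 against day 1 (1) it was 2 with quantile normalization, 3 with total gene signal or the value table, and 0 with no scaling. Array weights gave 1 at day 14 against day 7, and leaving out both high arrays gave 1 there and at day 28 against day 7. Within 1 slide 4 pairs of members differed. The replicate block changed no other call.

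Leaving out 1 array at a time gave, against uninjured arteries, 0 to 1 members for day 1, 1 to 2 for day 7 and 1 to 3 for day 14, day 28 and the mean of the 4 days, and between days 0 to 3 at day 7 against day 1, 1 to 3 at day 28 against day 1, 0 to 1 at day 14 and at day 28 against day 7, and 0 to 1 differing pairs.

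Of 1681 values of single members under the alternatives, 35 turned sign, all of them differences that were not called. miR-206 at day 28 against uninjured was -0.025 with the percentile over all probes, -0.24 with median scaling, -0.16 with quantile normalization, -0.18 with normexp background, -0.13 with total gene signal and -0.063 with the value table. miR-1 at day 1 against uninjured was -0.043 with the percentile over all probes and -0.062 with median scaling, and at day 7 0.56 with no scaling. Slide as a block gave 0.30, 0.35 and 0.091 for miR-206, miR-133b and miR-133a at day 1 against uninjured, and -0.39, -0.33 and -0.51 at day 14 against day 7. For miR-133a at day 28 against day 14, slide as a block and within 1 slide gave 0.11, array weights 0.072 and both arrays apart left out 0.015. For miR-133a at day 28 against day 7, the percentile over all probes gave 0.065, array weights 0.095 and both arrays apart left out 0.23, with 0.067 for miR-133b. At day 14 against day 7 no scaling gave -0.039 for miR-133b and -0.061 for miR-133a, array weights -0.063 for miR-133b, and the replicate block with slide -0.015 for miR-133a. Leaving out 1 array gave -0.88 to 0.21 for miR-133b at day 1 and -0.43 to 0.57 for miR-206 at day 28 against uninjured, and -0.16 to 0.23 for miR-133a and -0.30 to 0.11 for miR-133b at day 28 against day 7.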
